A study of Mus musculus with 8 samples.

Results

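The thin filament of the heart muscle cell was examined through 5 genes, *Actc1*, *Tpm1*, *Tnnt2*, *Tnnc1* and *Tnni3*, in small RNA libraries from mouse heart. The members were the rows with these names and the gene type protein-coding in the authors' table, which holds 54531 features, 22033 of them protein-coding. All 5 were found, 1 row each. The libraries came from C57BL/6 mice at 24 weeks of age, 4 from *Rnaseh1* knockouts and 4 from wild types. In the knockouts, a Cre recombinase driven by the promoter of muscle creatine kinase (Ckmm-cre) removed exon II of *Rnaseh1*, flanked by loxP sites, so the deletion is limited to heart and skeletal muscle, and other cells of the heart keep the gene. The labels write the controls as +/+, whereas the paper's heart controls carry loxP alleles without Cre. The labels give heart tissue as the source, whereas the methods of the paper give RNA from isolated heart mitochondria for small RNA-seq, and the names of the deposited columns per library begin with mtRNA. Levels below are therefore those of the sequenced RNA and cannot be taken as levels in the whole heart. By the methods and column names this RNA came from a mitochondrial preparation, by the labels from heart tissue.

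The value available for each gene was a single one, the authors' mean, which is the read count scaled by a factor per library and averaged over all 8 libraries of both genotypes. It carries no genotype, no spread between animals and no n per group, so the difference between knockout and wild-type hearts was not analysed here and no test was run. What follows describes how abundant fragments of the thin filament mRNAs were in these libraries, both genotypes together. Small RNA libraries hold short pieces of mRNAs, so the values can differ from what intact transcripts would give. *Rnaseh1* itself was listed at 0, so its row gave no check of the genotypes.

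Heart muscle contracts when the thick filament, made of myosin, pulls on the thin filament, made of actin. Tropomyosin lies along the actin strand and covers the sites that myosin binds. The troponin complex sits on tropomyosin and moves it when calcium arrives, with troponin C as the calcium sensor, troponin I as the inhibitory subunit and troponin T as the link to tropomyosin. Mammals carry several genes for each of these proteins, used in heart, slow skeletal, fast skeletal, smooth muscle or non-muscle cells, and *Actc1*, *Tnnt2*, *Tnnc1* and *Tnni3* are the forms of the adult heart, *Tnnc1* being shared with slow skeletal muscle.

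Because the counted fragments are short, the first question was how far a fragment of a member could be told from one of a related gene. A run of identical bases that the coding sequence of each member shared with a related gene is shown in capitals, with 15 bases of the member on either side in lower case, or fewer where the coding sequence begins or ends. All are on the mRNA strand of the member, from GENCODE transcripts on GRCm38. For *Tpm1* and the troponins it is the longest in the family, and for *Actc1* it is the longest shared with *Acta1*, the skeletal muscle actin, which is not the longest in the family.
Actc1 with Acta1: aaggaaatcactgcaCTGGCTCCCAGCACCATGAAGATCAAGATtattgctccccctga
Tpm1 with Tpm2: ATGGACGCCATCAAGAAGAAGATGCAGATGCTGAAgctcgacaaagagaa
Tnnc1 with Tnnc2: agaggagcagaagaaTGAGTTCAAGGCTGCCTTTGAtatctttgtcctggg
Tnni3 with Tnni1: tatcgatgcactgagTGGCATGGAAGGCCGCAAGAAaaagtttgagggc
Tnnt2 with Tnnt3: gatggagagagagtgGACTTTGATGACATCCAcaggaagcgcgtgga

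The run of *Actc1* with *Acta1* is 29 bases long and crosses from exon 6 to exon 7 of 7 on the minus strand, within chr2:114047593-114048164. *Actc1* also shared a run of 32 bases with *Actb*, the non-muscle beta actin. Over the whole coding sequence of 1131 bases, *Actc1* and *Acta1* carried the same base at 976 positions (86.3%), and 148 of the 155 differences fell on the third base of a codon. *Actc1* and *Acta2*, the smooth muscle alpha actin, were the same at 934 positions (82.6%), with 183 of 197 differences on the third base.

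*Tpm1* shared the first 35 coding bases with *Tpm2*, the beta tropomyosin, in exon 1 at chr9:67049083-67049132 on the minus strand. The troponin genes shared shorter runs with their relatives. The run of *Tnnc1* with *Tnnc2*, the fast skeletal troponin C, was 21 bases long and crosses from exon 2 to exon 3 on the plus strand within chr14:31209817-31210093. The run of *Tnni3* with *Tnni1*, the slow skeletal troponin I, was also 21 bases long, in exon 8 of 8 on the minus strand at chr7:4518371-4518419. The run of *Tnnt2* with *Tnnt3*, the fast skeletal troponin T, was 17 bases long, in exons 9 and 10 of 16 on the plus strand within chr1:135847749-135848003. A fragment of 25 bases from the coding sequence of a cardiac troponin therefore had no identical copy in the coding sequence compared for any of these relatives.

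The same question was asked of all exons and all annotated transcripts. Each transcript of a member was divided into overlapping words of 25 bases, and a word was counted as shared if any transcript of another gene held it. Of 1593 *Actc1* words, 44 (2.76%) were shared, with 11 genes, 5 of them pseudogenes, and *Actb* held 11 of the words. *Tpm1* shared 22 of 6655 words (0.331%), 21 of them with *Tpm2*. *Tnnt2* shared 19 of 7928 words (0.240%). These occurred in 743 genes, 491 of them protein-coding, with at most 8 of the words in any 1 gene.

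*Tnnc1* had the highest share, 79 of 1025 words (7.71%). These words occurred in 1238 genes, led by *Vmn2r120*, a vomeronasal receptor, with 32, and not by another troponin. *Tnni3* shared 62 of 2119 words (2.93%), all with *Dnaaf3*, a gene for assembly of ciliary dynein arms. The annotated exons of *Dnaaf3* overlap those of *Tnni3* on the same strand over 86 bases. Words that differ by 1 base or more from another gene count as its own here, and the read length is not given in the sources used here.

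*Actc1*, the cardiac actin that forms the backbone of the filament (ENSMUSG00000068614, GRCm38 chromosome 2, 114047282 to 114053548, minus strand), had the highest authors' mean of the 5, 251.7 normalised reads. Values of the table that recur in 266 to 921 features each, between 0.0637 and 0.193, were taken as those of a feature with 1 read in 1 library, and they bound the total behind a mean. For *Actc1* that total was between 1305 and 3951 reads, and the counting error of the mean was at most 6.97 (2.77%). Counting error is the only error that could be given, and the spread between animals is not in it.

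*Tpm1*, the alpha tropomyosin (ENSMUSG00000032366, chromosome 9, 67022590 to 67049406, minus strand), had a mean of 116.9 with a counting error of at most 4.75, from 606 to 1836 reads. Its 21 annotated transcripts, 16 of them coding, serve muscle and other cells, and the table sums them. *Tnnt2*, the cardiac troponin T (ENSMUSG00000026414, chromosome 1, 135836354 to 135852260, plus strand), had a mean of 73.3 with a counting error of at most 3.76, from 380 to 1151 reads, over 15 annotated transcripts.

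*Tnnc1*, the calcium-binding troponin C (ENSMUSG00000091898, chromosome 14, 31208312 to 31211729, plus strand), had a mean of 66.5 with a counting error of at most 3.58, from 345 to 1045 reads. *Tnni3*, the cardiac inhibitory subunit (ENSMUSG00000035458, chromosome 7, 4518305 to 4524229, minus strand), was the lowest at 36.8 with a counting error of at most 2.66 (7.24%), from 190 to 578 reads. The highest mean of the 5 was thus 6.84 times the lowest. The coordinates of all 5 were the same in the authors' table and in GENCODE.

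The 5 means summed to 545.2, which was 1.32% of the summed means of protein-coding genes and 0.0663% of those of all features. Protein-coding genes as a whole held 5.03% of the summed means, snoRNAs 73.3% and mtDNA 4.25%. Each member lay far above the median of the 11104 protein-coding genes with a mean above 0, which was 0.512.

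Since longer genes yield more fragments, levels were compared between genes per kb of annotated exon. *Actc1* had 155.5 ± 4.30 normalised reads per kb (± is the largest counting error here) and ranked 7 among 11103 protein-coding genes. *Tnnc1*, the shortest of the members with 1041 exon bases, followed at 63.9 ± 3.44, rank 13. *Tpm1* at 18.0 ± 0.732 and *Tnni3* at 17.8 ± 1.29 took ranks 28 and 29, and *Tnnt2* at 9.45 ± 0.485 took rank 57. The median over the 11103 genes was 0.111 per kb.

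**Figure D1:**
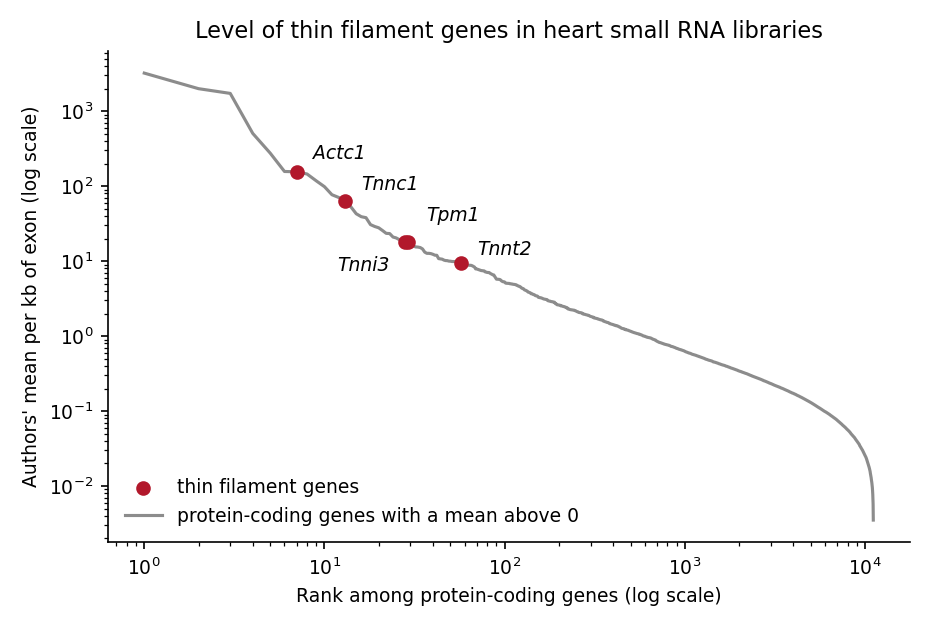
Authors' mean per kb of exon (log scale) against rank (log scale) for 11103 protein-coding genes with a mean above 0 (grey line), with the 5 thin filament genes as red points. The red points lie between rank 7 (*Actc1*, 155.5 per kb) and rank 57 (*Tnnt2*, 9.45 per kb), at the upper end of the curve.

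The steps in this order depended on the length used. Differences are given in units of the largest counting error and are therefore lower bounds. With all exons, *Actc1* was 2.43 times *Tnnc1* per kb, a difference of 16.6 counting errors, and *Tnnc1* was 3.55 times *Tpm1*, a difference of 13.0. *Tpm1* and *Tnni3* differed by 0.135 counting errors and could not be told apart, and *Tnni3* was 1.89 times *Tnnt2*, a difference of 6.07. Exons of all annotated transcripts together come to 7752 bases for *Tnnt2* and 6485 for *Tpm1*, whereas the transcript with the longest coding sequence has 1200 bases for *Tnnt2* and 1824 for *Tpm1*.

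On that transcript, *Actc1* stood at 170.9 per kb, *Tnnc1* at 92.3, *Tpm1* at 64.1, *Tnnt2* at 61.1 and *Tnni3* at 40.3. *Actc1* was then 1.85 times *Tnnc1* (11.5 counting errors), *Tnnc1* 1.44 times *Tpm1* (5.03) and *Tpm1* 1.59 times *Tnni3* (6.08). The ratio of *Tnni3* to *Tnnt2* turned round to 0.660, and *Tpm1* and *Tnnt2*, now neighbours, differed by 0.744 counting errors. The highest value was 4.24 times the lowest, against 16.5 times with all exons. *Actc1* and *Tnnc1* led with both lengths. Reads were aligned without splitting over introns, so fragments that cross exon junctions can be missed, while both lengths count all exon bases. That transcript has 16 exons for *Tnnt2*, 10 for *Tpm1*, 8 for *Tnni3*, 7 for *Actc1* and 6 for *Tnnc1*. The effect of missed junctions on the order was not tested. The mRNA fragments of the 3 troponin genes did not have equal levels per kb with either length. The proteins are built into the complex in equal number, but protein was not measured here. Fragment levels that depend on the length used say nothing about that number.

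**Figure D2:**
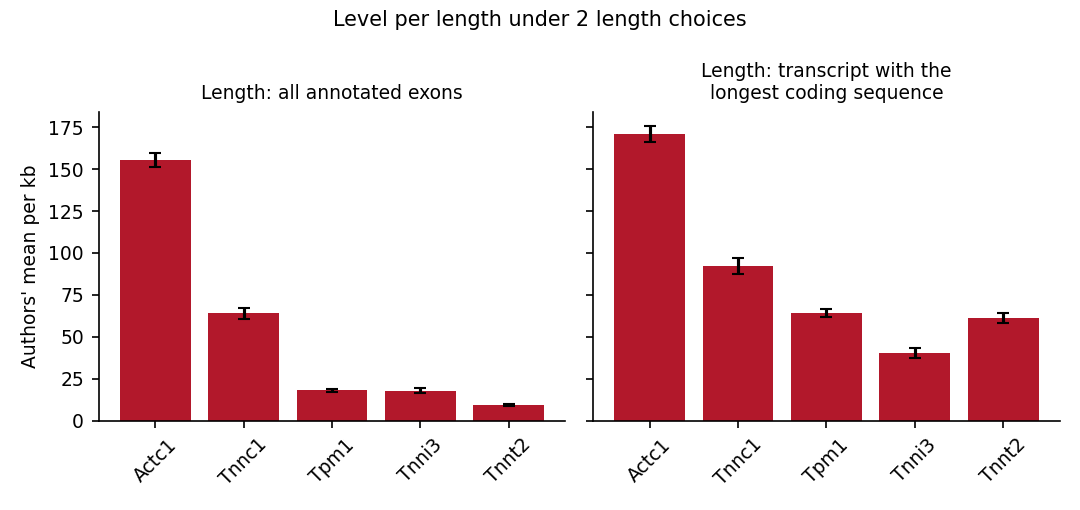
Authors' mean per kb of the 5 thin filament genes, with all annotated exons (left) or the transcript with the longest coding sequence (right) as length; error bars show the largest counting error of the mean over 8 libraries. *Actc1* and *Tnnc1* are highest in both panels, and *Tnnt2* stands below *Tnni3* on the left (9.45 and 17.8) and above it on the right (61.1 and 40.3).

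The nearest protein-coding genes in this order were of mixed kinds. *Actc1* stood between *Tmem38b*, a cation channel of the endoplasmic reticulum, at 157.1 per kb and *Lars2*, the mitochondrial leucyl-tRNA synthetase, at 145.4. *Tnnc1* stood between *Rpl5*, a ribosomal protein, at 70.7 and *Mb*, the oxygen-binding myoglobin, at 53.1. *Atp5b*, a subunit of ATP synthase, stood above *Tpm1* at 18.8, and *Cryab*, a small heat shock protein abundant in muscle, stood below *Tnni3* at 16.6. *Tnnt2* lay between *Gsn*, which severs actin filaments, at 9.55 and *Ogdh*, an enzyme of the TCA cycle, at 9.33. In units of the largest counting error, the difference from a neighbour reached 2.20 for *Lars2* and 2.49 for *Mb*, and was under 2 for the others. The actual counting error can be smaller, so these values are lower bounds.

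A gene for a small RNA, such as a snoRNA, lay on the same strand inside 1027 of the 11103 ranked genes and inside none of the 5 members. Such a gene lay inside *Tmem38b*, *Rpl5* and *Atp5b*, the nearest genes above *Actc1*, *Tnnc1* and *Tpm1*. The part of small RNAs in the levels of these neighbours was not tested. Of the 6 genes above *Actc1* per kb, 5 had such a gene inside, as had 9 of the 12 above *Tnnc1*, 12 of the 27 above *Tpm1*, 12 of the 28 above *Tnni3* and 14 of the 56 above *Tnnt2*. Among the 10076 genes with none inside, *Actc1* ranked 2, *Tnnc1* 4, *Tpm1* 16, *Tnni3* 17 and *Tnnt2* 43. The gene that stayed above *Actc1* was *Snrpb* at 3224 per kb, the highest of all 11103 ranked genes. The set rests on the annotation of small RNA genes, and whether its values come from mRNA fragments alone was not tested.

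Within each protein family the member held most of the signal, which for *Tpm1* sums the transcripts of muscle and other cells. Among 6 actins, *Actc1* accounted for 89.1% of the summed level per kb. *Actb* held 5.07% with an authors' mean of 23.7, and *Acta1*, the skeletal actin, held 4.39% with a mean of 11.8. *Acta2* held 1.11% with a mean of 4.25 and *Actg1*, the non-muscle gamma actin, 0.346%. *Actg2*, the smooth muscle gamma actin, was listed at 0.

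*Tpm1* held 91.7% of the summed level per kb of 4 tropomyosin genes. *Tpm4*, a form of non-muscle cells, held 5.58% and *Tpm2* 1.58%. *Tpm3* was the lowest with all exons, at 0.231 per kb. With the transcript of longest coding sequence as length, the share of *Tpm1* was 96.7% and that of *Actc1* 87.9%. *Tpm4* then held 1.71%, and the lowest tropomyosin was *Tpm2* at 0.414 per kb, below *Tpm3* at 0.630.

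The troponin families were nearly all cardiac form. *Tnnt2* held 99.3% of the level per kb of 3 troponin T genes, *Tnnc1* 99.7% of 2 troponin C genes and *Tnni3* 99.6% of 3 troponin I genes. The slow skeletal forms *Tnnt1* and *Tnni1* were listed at 0. The fast skeletal forms *Tnnt3*, *Tnni2* and *Tnnc2* had means of 0.107, 0.103 and 0.149, each the value of 1 read in 1 library. The shares of the fast forms therefore rest on 1 read each, and no fold is given against the genes at 0.

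**Figure D3:**
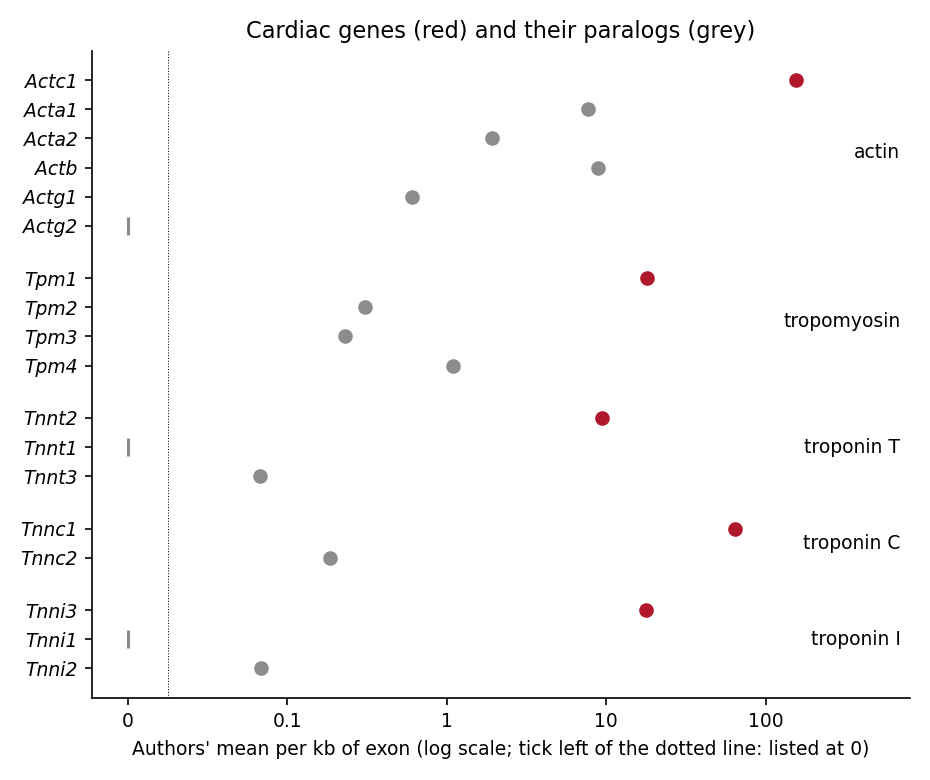
Authors' mean per kb of exon (log scale) of the cardiac thin filament genes (red) and the related genes of their families (grey), with ticks left of the dotted line for genes listed at 0. Each red point lies to the right of all grey points of its family, and the nearest grey point is *Tpm4* in the tropomyosins, with 5.58% of the family's level.

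Troponin genes lie in pairs in the mouse genome, a T gene beside an I gene. *Tnni3* and *Tnnt1* lie on chromosome 7 with 1.92 kb and no annotated feature between them, and had means of 36.8 and 0. *Tnnt2* and *Tnni1* lie on chromosome 1, 25.4 kb apart, with means of 73.3 and 0. *Tnni2* and *Tnnt3*, both fast skeletal, lie on chromosome 7, 54.4 kb apart, with means of 0.103 and 0.107. In both pairs of a cardiac and a slow skeletal gene, the cardiac gene was covered and its neighbour was at 0.

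A wider list held 28 other genes of the thin filament and of its assembly, length control and anchoring. Of these, 25 had a mean above 0 and 3 were listed at 0, and 7 reached a mean of 5, the level taken here as covered, against 485 of the 22033 protein-coding genes. The median of the list was 2.01. The highest was *Actn2*, the alpha-actinin that ties thin filaments to the Z-disc, with a mean of 46.8, or 12.3 per kb.

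*Actb* followed with 23.7 (8.85 per kb). *Lmod2*, a leiomodin that nucleates and lengthens cardiac thin filaments, had 14.8 (7.50 per kb), and *Nrap*, which takes part in myofibril assembly, 12.2 (2.22 per kb). *Acta1* had 11.8 (7.67 per kb). *Nebl*, the cardiac relative of nebulin, had 8.05 (0.528 per kb), and *Tmod1*, which caps the pointed end, 6.47 (1.64 per kb). By mean, *Actn2* alone exceeded a member, *Tnni3* at 36.8, and per kb it exceeded *Tnnt2* at 9.45 with all exons, though not on the transcript with the longest coding sequence, where *Actn2* stood at 15.5 and *Tnnt2* at 61.1.

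The thick filament gave a second yardstick of level. The 5 thin filament genes summed to 264.8 per kb, against 192.4 per kb for 7 thick filament genes. *Myh6*, the main myosin heavy chain of the adult mouse heart, stood at 98.5 per kb, below *Actc1* at 155.5 and above *Tnnc1* at 63.9. The ventricular light chains *Myl2* and *Myl3* stood at 39.2 and 29.0, between *Tnnc1* and *Tpm1*. *Myh7*, the slow heavy chain, at 12.7 and *Mybpc3*, the cardiac myosin-binding protein C, at 10.2 lay between *Tnni3* and *Tnnt2*. The atrial light chains *Myl7* at 2.37 and *Myl4* at 0.474 lay below all 5 members. On the transcript with the longest coding sequence, *Myl2* stood at 104.8, above *Tnnc1* at 92.3, and *Myl3* at 63.3, between *Tpm1* and *Tnnt2*, while *Myh7* at 17.6 and *Mybpc3* at 10.2 lay below all 5 members. *Myh6* and *Myh7* each have a small RNA gene inside on the same strand, and its part in their levels was not tested.

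Marker lists described which cell types left fragments in the libraries. All 8 cardiomyocyte markers reached the covered level, with means from 42.3 to 1809. Of 9 skeletal muscle markers, 2 were at 0 and 8 under 1, the exception being *Acta1* at 11.8, which heart muscle also expresses. Fibroblast markers had means from 2.16 to 20.8 over 6 genes, endothelial markers 1.76 to 10.6 over 5, smooth muscle markers 0.112 to 4.25 over 4, leukocyte markers 0.202 to 6.42 over 4 and erythroid markers 6.18 to 11.8 over 4. Fragments of mRNAs of non-muscle cells were therefore present, and *Actb*, *Actg1* and *Tpm4* are used by such cells; their part in the levels of the actin and tropomyosin families was not tested. The means are not divided by length. Per kb of all exons, the erythroid markers stood at 8.79 to 14.6. That range spans *Tnnt2* at 9.45 and the cardiomyocyte marker *Mybpc3* at 10.2, and *Ttn* stood at 15.5. *Ryr2* alone of the cardiomyocyte markers lay below that range, and also below *Lyz2* (leukocyte, 4.88), *Dcn* (fibroblast, 3.57) and *Cdh5* (endothelial, 2.53). The median was 24.2 for cardiomyocyte and 10.8 for erythroid markers. It was 0.261 to 1.21 for the fibroblast, endothelial, smooth muscle and leukocyte lists. On the transcript with the longest coding sequence, erythroid markers stood at 8.79 to 16.9, below *Tnnt2* at 61.1. Among cardiomyocyte markers, *Mybpc3* at 10.2 lay within that range, *Ryr2* at 3.93 lay below it and *Ttn* at 16.9 was level with its upper end. The other cardiomyocyte markers lay above it, from *Pln* at 22.9 to *Myh6* at 108.3. *Dcn* of the fibroblast list stood at 11.9. Cell number and RNA per cell cannot be told apart in bulk samples.

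**Figure D4:**
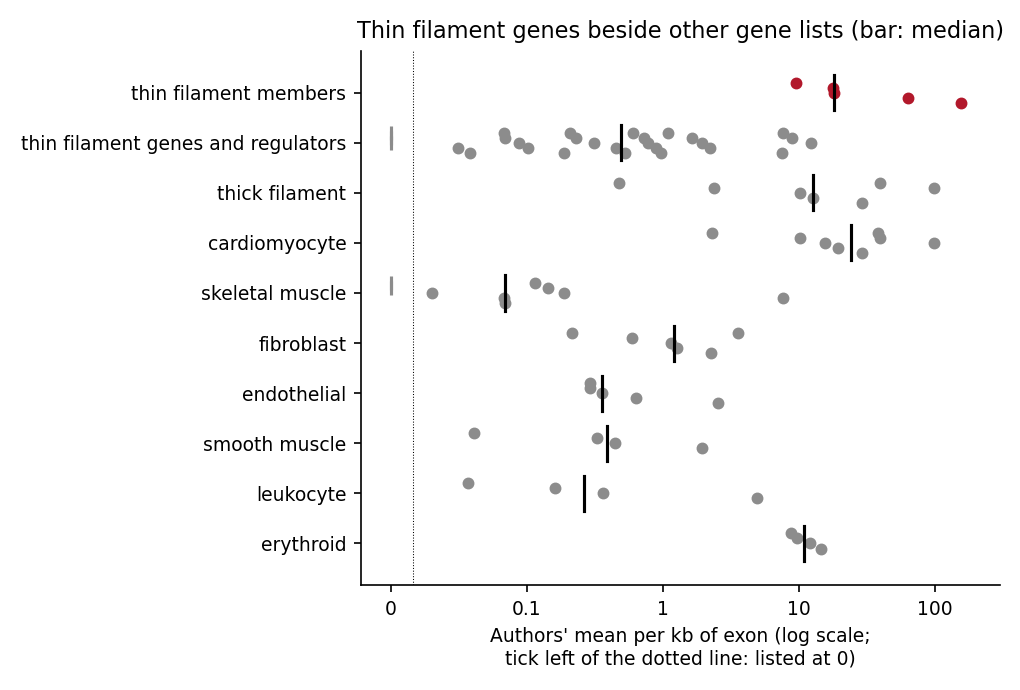
Authors' mean per kb of exon (log scale) for each gene of the thin filament members (red) and of 9 other lists (grey), with the median as a black bar and ticks left of the dotted line for genes listed at 0. The members (median 18.0) lie among the cardiomyocyte markers (median 24.2, highest 98.5), apart from *Actc1* above them, and the skeletal muscle markers reach at most 0.186 (*Tnnc2*) apart from *Acta1* at 7.67.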

How the data were processed

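Bowtie2 (v2.3.4.1) was used by the authors to align single-end small RNA reads to mm10, without splitting reads over introns. Stranded gene counts came from featureCounts (v1.6.3) with the Ensembl annotation of GRCm38 and an additional one for mtDNA, and the authors fitted DESeq2 (v1.18.1, R v3.5.1) to them. The deposited mean of each feature is a signal, that is, counts scaled by size factors and averaged over all 8 libraries. The authors also deposited a log2 fold change, its standard error, a Wald statistic (a score) and raw and adjusted p-values, which hold their own comparison and were not used here. A further 8 columns of values per library bear names (mtRNA and a number) that match no library and no genotype, so they were not used. Depth per library was not analysed here, and the planned tests of the genotypes (limma, exact permutation) could not be run.

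Levels per kb, ranks, shares and shared words were derived in Python (v3.11.15, with matplotlib 3.10.9, numpy 2.4.6 and pandas 2.3.3) from GENCODE exons and transcripts of GRCm38, which held 54372 of 54531 features. Bounds on read totals and on counting error (the square root of the mean times the highest value of 1 read) came from the recurring low values. A mean of 5 was taken as covered. The word search was tested on simulated sequences. A further stretch shared among actins is not reported here. All 5 members were named in full, the wider list only where covered, thick filament genes for level, and the nearest gene on each side. Related genes of each family that were not covered, the genes sharing words and *Snrpb* were named after their values were seen. The members and lists were chosen with earlier results of these data known.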

Additional observations from a re-analysis of the deposited data

How the results depend on the processing

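No genotype test was run, so the alternatives planned for it (pseudocount, filter, scaling, count-based tests, leaving out a library) gave no values. No paired analysis was possible because the columns per library carry neither a genotype nor a replicate number. Ranks per kb did not move when only genes with a mean of at least 5 were ranked. With no division by length, *Actc1* ranked 12, *Tpm1* 15, *Tnnt2* 23, *Tnnc1* 26 and *Tnni3* 45. As shares of nuclear features the means were 0.0319% for *Actc1*, 0.0148% for *Tpm1*, 0.00930% for *Tnnt2*, 0.00845% for *Tnnc1* and 0.00467% for *Tnni3*, against 0.0306%, 0.0142%, 0.00891%, 0.00809% and 0.00447% of all features.

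Other alternatives were chosen after seeing the data. On the transcript with the longest coding sequence the ranks were 9 for *Actc1*, 15 for *Tnnc1*, 17 for *Tpm1*, 19 for *Tnnt2* and 25 for *Tnni3*. Among genes with no small RNA gene inside they were 2 for *Actc1*, 4 for *Tnnc1*, 16 for *Tpm1*, 17 for *Tnni3* and 43 for *Tnnt2*. Each of these ranks moved because the construction changed the length or the genes compared. Words of 20 bases raised the shared share to 7.07% for *Actc1*, 1.25% for *Tpm1*, 0.762% for *Tnnt2*, 11.1% for *Tnnc1* and 3.75% for *Tnni3*, and words of 35 bases lowered it to 0.253%, 0.0446%, 0.149%, 4.42% and 2.42%. Depth limits the statements on the fast skeletal troponins, which rest on 1 read each.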
